A study of Mus musculus with 11 samples.

Results

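RNA fragments bound by FMRP in the cortex were compared with those bound in the hippocampus of mice at postnatal day 13. The comparison used 8 of the 11 libraries of the series, chosen by the tissue in their labels: 3 of cortex and 5 of hippocampus. One more library, whose title names cortex and whose tissue label names hippocampus, was left out. The fit also held 2 libraries of cerebellum, which helped to estimate the spread and the effect of the number in each sample title. The cerebellum libraries can thereby shift the fitted fold changes. The counts of hippocampus 1 and 2 could not be told apart beyond sampling noise (a chi-square test over 1873 rows gave p = 0.191, with 1.03 per degree of freedom) and were summed as 1 sample, hippocampus 1+2, which left 7 samples. All of them share 1 handling: the tissue was ground in liquid nitrogen, irradiated 3 times with ultraviolet light (254 nm, 400 mJ) to fix protein to RNA, and immunoprecipitated for FMRP, and the RNA was ligated into small-RNA libraries. No genotype, strain, sex or treatment that differs between the groups is named in the labels. They also do not say whether libraries came from separate animals, so every p below measures library-to-library spread, which may be technical.

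FMRP is the RNA-binding protein whose loss causes Fragile X syndrome. In neurons it sits mainly on the coding parts of long messenger RNAs, many of them for synaptic, cytoskeletal and signalling proteins, and it holds back their translation. The cortex is built of layers of excitatory neurons with distinct upper and deep layer programmes. The hippocampus is built of the pyramidal neurons of the CA fields and the granule cells of the dentate gyrus, and choroid plexus lies along its ventricular edge. Libraries of unbound RNA or of tissue lacking FMRP were not analysed here, so more of an RNA and more binding of it cannot be told apart. The tissue is bulk, so fewer cells of a type and less RNA per cell cannot be told apart either.

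Levels are given as scaled CPM, which are CPM (counts relative to the library total) after each library total was multiplied by its TMM factor, a scale set from the bulk of genes. Totals were 30721, 55784 and 11898 counts in cortex 1, 2 and 3, and 130306, 117322, 21944 and 21531 in hippocampus 1+2, 3, 4 and 5. A single count was therefore worth 7.55 scaled CPM in hippocampus 1+2 and 86.3 in cortex 3, so a value of cortex 3 under 259 rests on fewer than 3 counts. Cortex 3, hippocampus 3 and hippocampus 4 stood apart from the rest: 4.48, 3.13 and 4.58% of their counts fell on a list of known FMRP-bound messenger RNAs, against 8.52 to 12.1% in the other 4 samples. Predicted gene names took 18.4, 18.8 and 17.7% of their counts, against 5.53 to 11.8%. The number in each sample title sorts the samples into codes whose meaning the labels do not give. Called codes A, B and C here, code A holds cortex 1 and hippocampus 1+2, code B holds cortex 2 and 3 and hippocampus 4 and 5, and code C holds hippocampus 3 with no cortex sample.

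Samples of 1 region were, in the median, no more alike than samples of different regions. Across the tested rows, the Pearson correlation of log2 levels was 0.234 to 0.659 within cortex (median 0.31, 3 pairs), 0.268 to 0.618 within hippocampus (median 0.418, 6 pairs) and 0.232 to 0.832 between the regions (median 0.442, 12 pairs). The highest value belonged to cortex 1 and hippocampus 1+2, which share a title code. Cortex 3 had its highest correlation, 0.31, with cortex 2. These values are descriptions across genes, and the samples differ in depth.

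**Figure D1:**
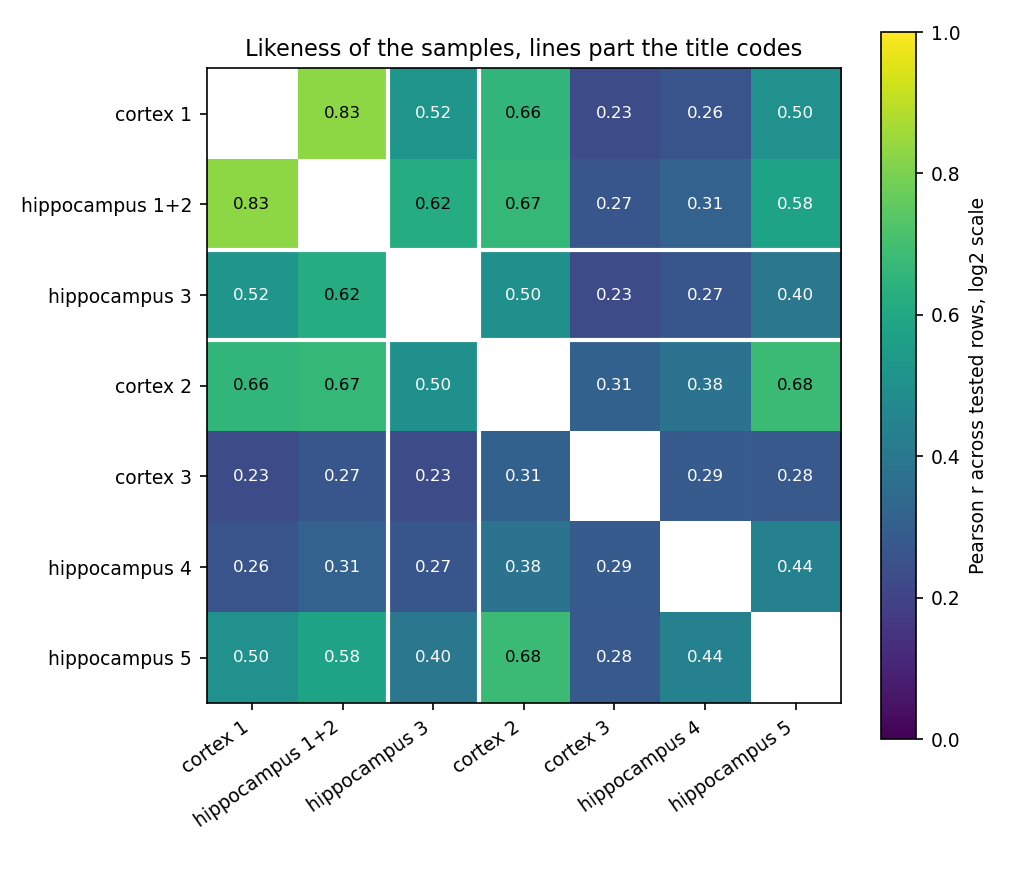
Pearson correlation across tested rows, on the log2 scale, for each pair of the 7 samples, ordered by title code with lines between codes. Cortex 1 and hippocampus 1+2 show the highest value (0.83), and the row of cortex 3 holds no value above 0.31.

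No row passed the test between the regions. In edgeR, 0 of 1720 tested rows had an adjusted p under 0.05 with cortex higher (0%) and 0 with cortex lower (0%). At an unadjusted p under 0.05 there were 68 rows (3.95% of those tested), 22 with cortex higher (1.28%) and 46 with cortex lower (2.67%). DESeq2 called 1 row, Zbtb20, and limma voom called 0. The log2 fold change, written throughout as cortex minus hippocampus, was above 0 in 47.1% of rows and below 0 in 52.9%. Its median was -0.04 with quartiles of -0.47 and 0.31, and the median SE was 0.63. The rows nearest to the threshold are described next, as values that did not pass. Where a setting made a call, it is named beside the gene.

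**Figure D2:**
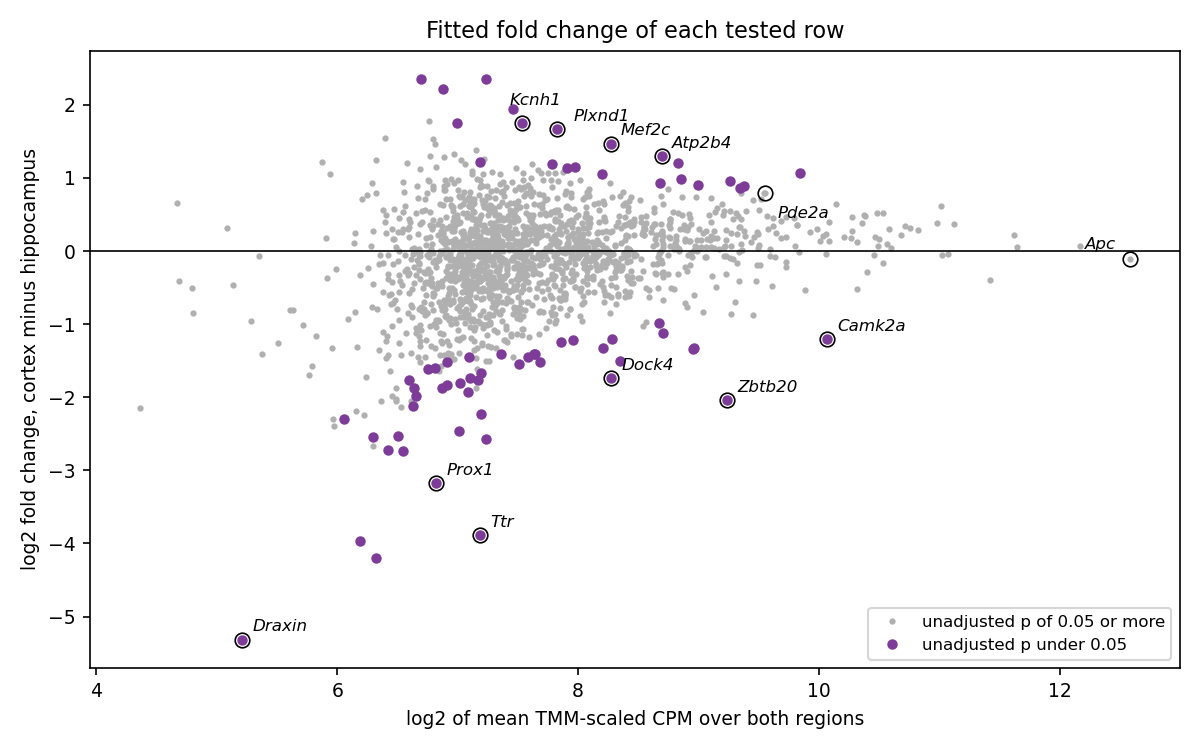
Fitted log2 fold change, cortex minus hippocampus, of each of the 1720 tested rows against the log2 of its mean scaled CPM over both regions; purple points had an unadjusted p under 0.05 and ringed points are named. Zbtb20 (-2.03) and Camk2a (-1.21) lie below 0 at high levels, and Apc, the row of highest level, lies near 0.

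The row nearest to a call was Zbtb20, a zinc finger transcription factor that shapes hippocampal pyramidal neurons (chromosome 16, 42875881 to 43642602, plus strand, GRCm38). Its level was 258, 273 and 173 scaled CPM in cortex 1, 2 and 3, and 1110.4, 767, 589 and 1414 in hippocampus 1+2, 3, 4 and 5. Every hippocampus sample was thus above every cortex sample, with means of 235 ± 54.3 (SD, n = 3) and 970.2 ± 366 (SD, n = 4). The log2 fold change was -2.03 (SE 0.51, adjusted p = 0.0791, edgeR). Within code A the log2 ratio was -2.05 and within code B it was -2.0. Over all settings tried, Zbtb20 kept a value between -2.26 and -1.52 and passed in 5 of 19. It was called with only cortex and hippocampus samples in the fit under the title-code block (429 rows tested, adjusted p = 3.04e-05) and with 10 separate libraries (0.00505). It was also called by DESeq2 (0.0354), without hippocampus 3 (0.000157), and without the 3 samples of low share on known FMRP targets (2.68e-07), a setting chosen after seeing the data.

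Prox1, the homeobox factor that dentate granule cells keep throughout life (chromosome 1, 190118035 to 190170714, minus strand), had 0, 43.2 and 0 scaled CPM in cortex. In the hippocampus samples it had 174, 225, 236 and 212, which stand for 23, 17, 4 and 6 counts. The 3 cortex samples held 3 counts of Prox1 in all and the hippocampus samples 50, a pooled ratio of 7.89 in favour of hippocampus (exact 95% interval 2.55 to 39.5, counting error only). The fitted value was -3.17 (SE 0.97, adjusted p = 0.41, edgeR). Nr3c2, the mineralocorticoid receptor, had 25.8, 57.6 and 173 in cortex against 166, 159, 236 and 247 in hippocampus. The 2 ranges met at cortex 3, where 173 stands for 2 counts (log2 fold change -1.77, SE 0.90, adjusted p = 0.999, edgeR).

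Ttr, the thyroid hormone carrier that choroid plexus makes in very large amounts, stood at 25.8, 14.4 and 0 scaled CPM in cortex. Its hippocampus values were 83.1, 251, 353 and 424, again with no overlap. Cortex held 2 counts in all and hippocampus 48, a pooled ratio of 11.4 (exact 95% interval 2.98 to 96.5, counting error only). The fitted log2 fold change was -3.88 (SE 0.99, adjusted p = 0.0791, edgeR). With a stricter filter of at least 10 counts in at least 4 samples, which tested 1539 rows, Ttr was the only row called (adjusted p = 0.0448). The other 11 members of the choroid plexus and ependyma list had between 0 and 12 counts in any sample and none of them was tested. Clic6, Foxj1, Kcnj13, Otx2 and Sostdc1 were at 0 in all 3 cortex samples, and also at 0 in hippocampus 4 and 5, where Ttr had its highest scaled values. Aqp1, Folr1, Igf2, Kl and Slc4a5 had counts in both regions and a higher pooled level in hippocampus. Enpp2 went the other way, with 2, 10 and 0 counts in cortex and 5, 11, 2 and 1 in hippocampus. Its pooled level was 100 scaled CPM in cortex and 75 in hippocampus. The summed level of the list was 103, 259 and 86.3 in cortex and 317, 1045, 530.2 and 566 in hippocampus. What part choroid plexus tissue has in the Ttr values was not tested.

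Among signalling genes with higher values in hippocampus, Dock4, an exchange factor for Rac, had 129, 201 and 86.3 scaled CPM in cortex. It had 438, 185, 589 and 707 in hippocampus, so hippocampus 3 alone fell inside the cortex range (log2 fold change -1.74, SE 0.54, adjusted p = 0.41, edgeR). Camk2a, the alpha subunit of the calcium and calmodulin dependent kinase of the postsynaptic density and a classic FMRP target, had 490.2, 1065 and 345 in cortex and 1005, 992, 2121 and 1944 in hippocampus. Cortex 2 overlapped with the lower 2 hippocampus samples (log2 fold change -1.21, SE 0.46, adjusted p = 0.856, edgeR). Both genes were called when only cortex and hippocampus samples were fitted with the block, Dock4 at an adjusted p of 0.0248 and Camk2a at 0.0213. That fit tested 429 rows, and hippocampus 3, alone in its code, adds nothing to its contrast. Eps8, an actin capping protein, had 77.4, 57.6 and 0 in cortex and 121, 66.2, 471 and 247 in hippocampus, with overlap at hippocampus 3.

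Further rows with higher values in hippocampus have varied roles. Cntn2, an axonal adhesion molecule, had 0, 71.9 and 86.3 scaled CPM in cortex against 98.2, 344, 412 and 106 in hippocampus (-2.23 on the log2 scale, SE 0.76, adjusted p = 0.694, edgeR). Kif26b, a kinesin family member, had 0, 57.6 and 86.3 against 151, 159, 353 and 177 (-2.46, SE 0.79, adjusted p = 0.528, edgeR). Neither gene overlapped between the regions. Ddr1, a collagen receptor kinase, and Iars2, the mitochondrial isoleucine tRNA synthetase, each had 1 count in cortex, in cortex 2, and 26 counts in hippocampus. For each the pooled ratio was 12.3 with an exact 95% interval from 2.02 to 504, and the adjusted p was 0.694 in edgeR. These intervals, like those of Prox1 and Ttr, leave out the spread between libraries. The choice of rows by p in the same samples also favours intervals away from 1. Draxin, a secreted repellent of commissural axons, had 0 counts in cortex and 5, 8, 2 and 1 in the hippocampus samples. Its pooled hippocampus level was 2.52 times the floor of 3 counts over the pooled cortex samples, which is 25 scaled CPM. Rnu5g, a spliceosomal U5 small nuclear RNA with near-identical copies in the genome, ranged from 77.4 to 576 in cortex and from 151 to 1650 in hippocampus, and the regions overlapped.

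In the other direction, the row of smallest p was Plxnd1, a semaphorin receptor (chromosome 6, 115954811 to 115995005, minus strand). Its level was 464, 288 and 259 scaled CPM in cortex and 325, 106, 0 and 35.3 in hippocampus, where hippocampus 1+2 lay within the cortex range (log2 fold change 1.66, SE 0.58, adjusted p = 0.694, edgeR). The value was 3.65 without cortex 1 and also without hippocampus 1+2. Mef2c, an activity-regulated transcription factor strong in cortical excitatory neurons, had 232, 878 and 259 against 106, 79.4, 353 and 106. Hippocampus 4 alone reached into the cortex range, with 6 counts (log2 fold change 1.47, SE 0.54, adjusted p = 0.845, edgeR), and without cortex 2 the value was 0.79. Wdr82, a subunit of histone methyltransferase complexes, had 181, 158 and 432 against 52.9, 66.2, 58.9 and 0. Atp2b4, a calcium pump of the plasma membrane, had 568, 734 and 518 against 317, 212, 118 and 247. Neither Wdr82 (log2 fold change 2.35, SE 0.86) nor Atp2b4 (1.30, SE 0.48) overlapped between the regions, and their adjusted p were 0.845 and 0.847 in edgeR.

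Potassium channel genes were among the cortex-higher rows. Kcnh1, an ether-a-go-go channel and known FMRP target, had 413, 144 and 259 scaled CPM in cortex against 52.9, 106, 236 and 0 in hippocampus (1.75 on the log2 scale, SE 0.67, adjusted p = 0.89, edgeR). It was called without cortex 3, hippocampus 3 and hippocampus 4 (log2 fold change 3.10, adjusted p = 0.00686). Kcnq3, a subunit of the M current, had 851, 935 and 604 against 423, 556, 177 and 566, with no overlap (0.95, SE 0.44, adjusted p = 0.999, edgeR). Atp2b2, another calcium pump, had 1600, 1468 and 432 against 823, 966, 236 and 672, and cortex 3 lay below 3 of the 4 hippocampus samples. Phf24, R3hdm2, Cpd, Ptprk and Robo2 complete the 12 rows of smallest p on this side, with log2 fold changes of 1.20, 1.19, 1.76, 2.36 and 1.16. Cpd and Ptprk had 0 counts in both hippocampus 4 and 5. Of the 12 rows on each side, 4 with cortex higher and 8 with cortex lower did not overlap between the regions. Over all tested rows the shares were 1.1% and 3.72%, and the choice of rows by p in the same samples favours a lack of overlap.

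**Figure D3:**
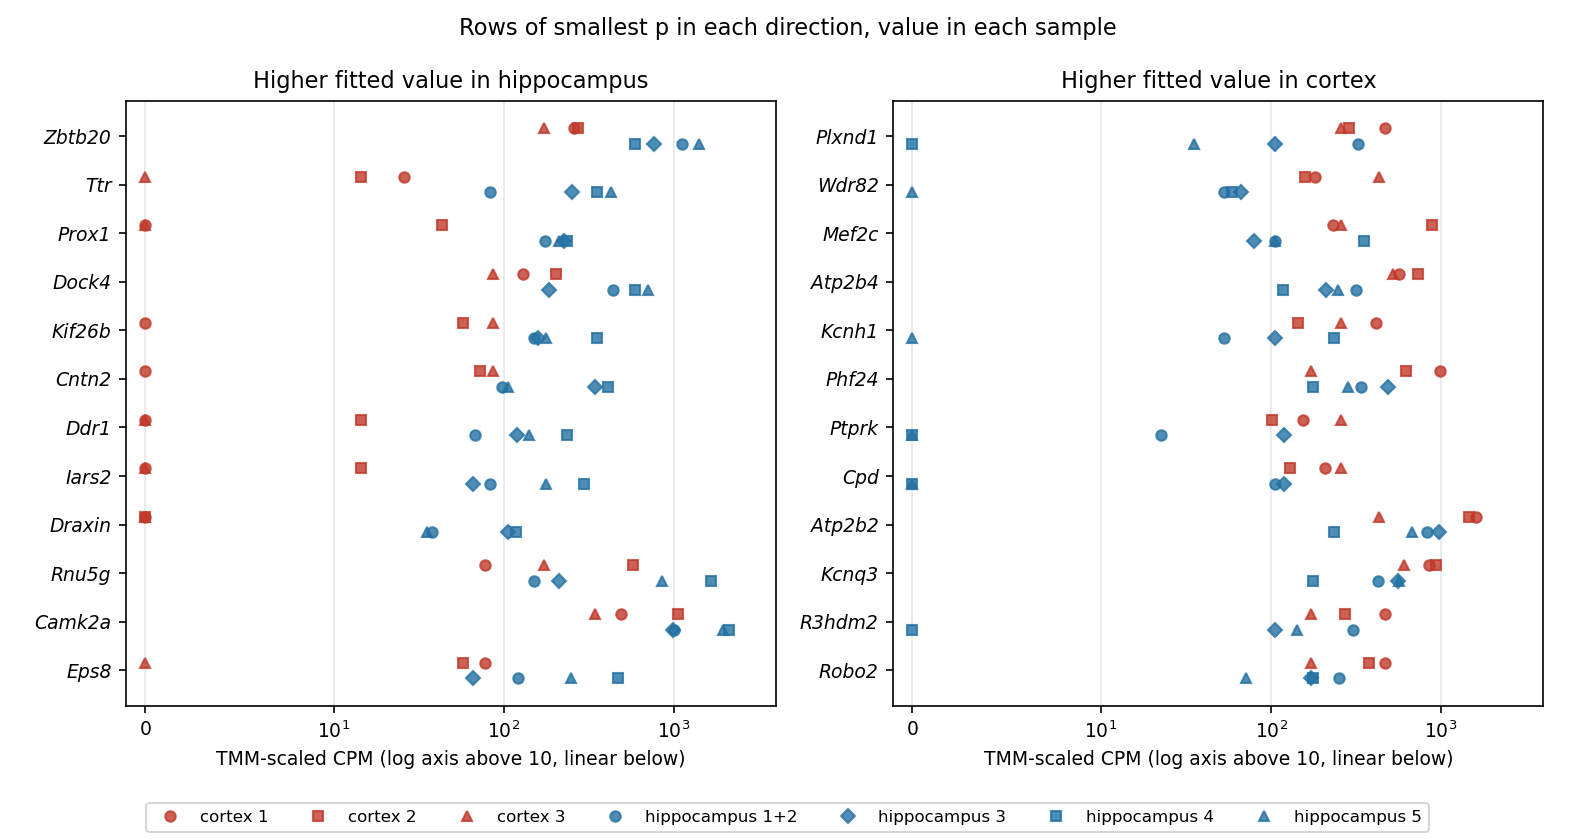
Scaled CPM of the 12 rows of smallest p on each side in each of the 7 samples (red cortex, blue hippocampus, one marker shape per sample); the axis is linear below 10 and logarithmic above. Zbtb20 shows all 4 hippocampus samples to the right of the 3 cortex samples, and Plxnd1 shows hippocampus 1+2 among the cortex samples.

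Over all tested rows, the samples of the regions did not overlap in 83 (4.83%), with cortex higher in 19 (1.1%) and lower in 64 (3.72%). That split depends on the scale. On library totals without TMM factors 42 of the same 1720 rows had cortex higher and 25 lower, while the median log2 fold change of all rows moved from -0.04 to 0.24. Another reading, on the TMM scale, comes from the title codes, which give 2 comparisons without a shared sample. The log2 ratios of code A and of code B had the same sign in 896 rows (52.1%), 339 with cortex higher (19.7%) and 557 lower (32.4%). Across rows the 2 sets of ratios correlated with a Pearson r of 0.0934 and a Spearman rho of 0.0793, a description over genes, which are not independent. Ratios past 1 in size and of the same sign in both codes were found in 14 rows with cortex higher (0.814%) and 78 lower (4.53%). A count of 0 in a shallow sample gives a large ratio in either direction. In code B, Dlgap1, at 0 in cortex 3, had -3.05, and Plxnd1, at 0 in hippocampus 4, had 3.47. Of the 68 rows with an unadjusted p under 0.05, 66 had the same sign in both codes and 27 did not overlap, counts that the choice of rows by the same samples favours.

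**Figure D4:**
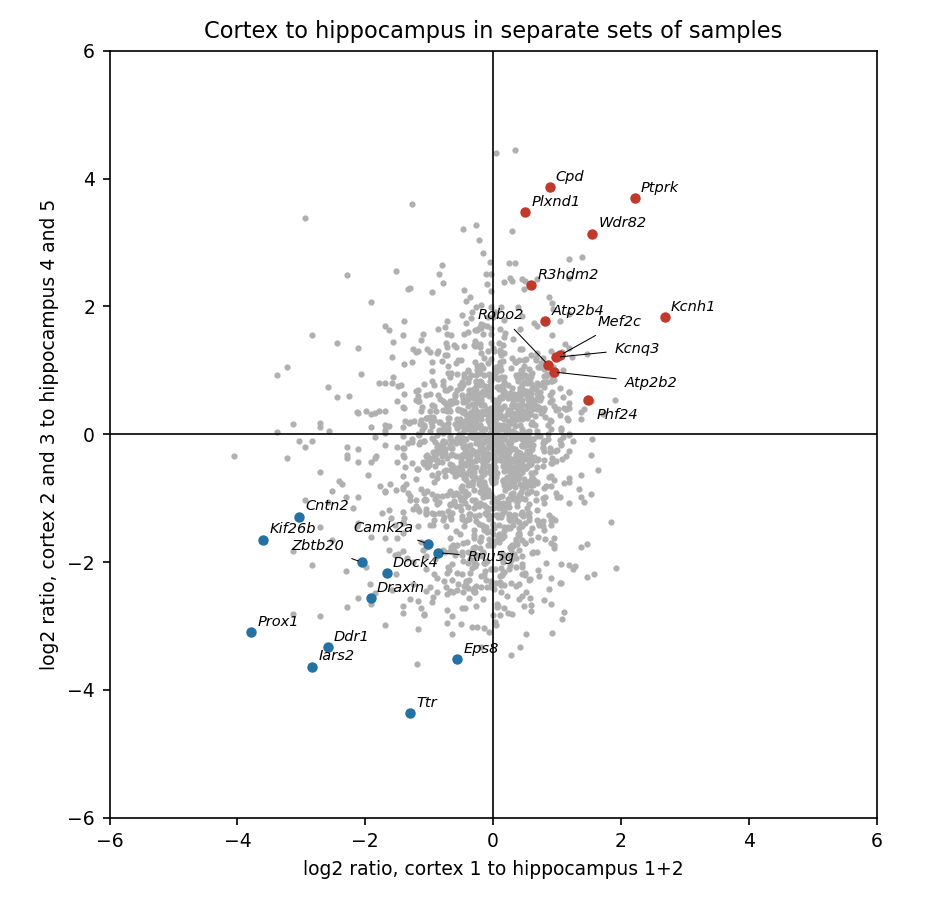
Log2 ratio of cortex to hippocampus in code A (horizontal) and in code B (vertical) for each tested row; the rows of smallest p are coloured red where cortex was higher and blue where it was lower. The cloud shows little slope (Pearson r 0.0934), while Prox1 lies at -3.79 and -3.09 and Zbtb20 at -2.05 and -2.0.

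The labelled regions were checked against cell type markers, summed over each list. Dentate granule cell genes summed to 929, 734 and 518 scaled CPM in cortex and to 1450.3, 1799, 1944 and 1379 in hippocampus. CA field pyramidal neuron genes summed to 516, 906 and 1036 against 2115, 2104, 1414 and 2086. On both lists every hippocampus sample lay above every cortex sample. The CA separation rests on Zbtb20: without it the sums were 258, 633 and 863 in cortex and 1005, 1336, 825 and 672 in hippocampus, which overlap. The dentate sums did not overlap without Prox1 either (518 to 929 against 1167 to 1708). On library totals the ranges touched, with cortex 1 at 1172 CPM and hippocampus 3 at 1159 for the dentate list, and cortex 2 at 1129 and hippocampus 4 at 1094 for the CA list. All 6 tested members of the dentate list had a log2 fold change below 0 (median -0.96), beside a median of -0.04 over all rows tested. Besides Prox1 they were the guidance gene Sema5a (-1.22), the desmosomal gene Dsp (-1.72), Igfbp5 (-0.70), Rfx3 (-0.51) and Dock10 (-0.31). Prox1 (0, 3 and 0 counts in cortex) and Dsp (3, 1 and 0) passed the filter only through samples outside cortex. For these genes the filter itself favours values below 0. The other 11 of the 17 genes on the dentate list had too few counts for the test. Among them Npnt, with 4, 4 and 1 counts in cortex and 3, 2, 0 and 0 in hippocampus, and Plk5, with 0, 3 and 1 against 0, 0, 2 and 0, had the higher pooled level in cortex. For the CA list only Zbtb20 and Nr3c2 could be tested. Fibcd1 and Wfs1, other genes of CA1 neurons, had 40 and 24 counts in hippocampus 1+2 and 3 together, and 0 in hippocampus 4 and 5. In cortex Fibcd1 had 1, 0 and 0 counts and Wfs1 had 1, 8 and 0. Mpped1 of the CA list had 3, 19 and 1 counts in cortex and 22, 6, 0 and 1 in hippocampus. Its pooled level was higher in cortex (192 against 115 scaled CPM), as was that of Iyd (8.34 against 3.95). The other measured members of the CA list had the higher pooled level in hippocampus.

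Markers of cortical layers did not part the regions. Upper layer and layer 4 genes summed to 1187, 2130 and 2158 scaled CPM in cortex and to 1080.2, 1932, 2003 and 778 in hippocampus. Deep layer genes summed to 645, 978 and 949 against 974, 2077, 1002 and 989.8, so cortex was not above hippocampus on this list. Of the 5 tested upper layer genes 3 lay above 0 (median 0.16): Mef2c at 1.47, the layer marker Cux2 at 0.79 (SE 0.63) and Rasgrf2 at 0.16. Cux1 at -0.16 and Rora at -0.61 lay below. The log2 ratio of Cux2 was -0.03 in code A and 1.66 in code B. Tbr1, a defining gene of corticothalamic neurons, had 0, 9 and 0 counts in cortex and 1, 6, 2 and 1 in hippocampus. Genes common to forebrain excitatory neurons summed to 4438, 3957 and 1813 against 4479, 5703, 3594 and 3924, and 7 of 11 tested members were above 0. Their median was 0.47, but -0.30 without the title-code block. No list in this set had a member at 0 in all 7 samples.

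Of the 13 marker lists, 5 had sums that did not overlap, each with cortex lower: the dentate, CA, choroid plexus, oligodendrocyte and thalamic lists. For the choroid plexus list this rests on Ttr, without which the sums were 77.4, 245 and 86.3 in cortex and 234, 794, 177 and 141 in hippocampus, and for the CA list on Zbtb20. On library totals 2 lists did not overlap: thalamic genes, again lower in cortex, and striatal genes, higher in cortex. Thalamic neuron genes summed to 258, 273 and 259 scaled CPM in cortex and to 408, 860.03, 707 and 318 in hippocampus. The cortex 3 sum stands for 3 counts, and the 1 tested thalamic member had a log2 fold change of 0.12. Oligodendrocyte genes summed to 722, 1122 and 432 against 1126, 2527, 1237 and 1167, where cortex 2 and hippocampus 1+2 differ by less than 1 count. Of its tested members, Qk, an RNA-binding protein of myelinating cells, had a log2 fold change of -0.63 and Mbp, myelin basic protein, -0.14. Astrocyte genes summed to 5393, 4979 and 1122 against 5084, 9275, 3829 and 5444, and 7 of 8 tested members were below 0, with a median of -0.38 that was -0.08 on library totals. The exception was Glul, glutamine synthetase, at 0.74. Hippocampus 3, which has the lowest TMM factor (0.644), had the highest scaled sum of the hippocampus samples on 9 of the 13 lists. On library totals it was highest only on the deep layer, thalamic, oligodendrocyte, and endothelium, pericyte and microglia lists. The part of tissue makeup in single-gene values was not tested.

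**Figure D5:**
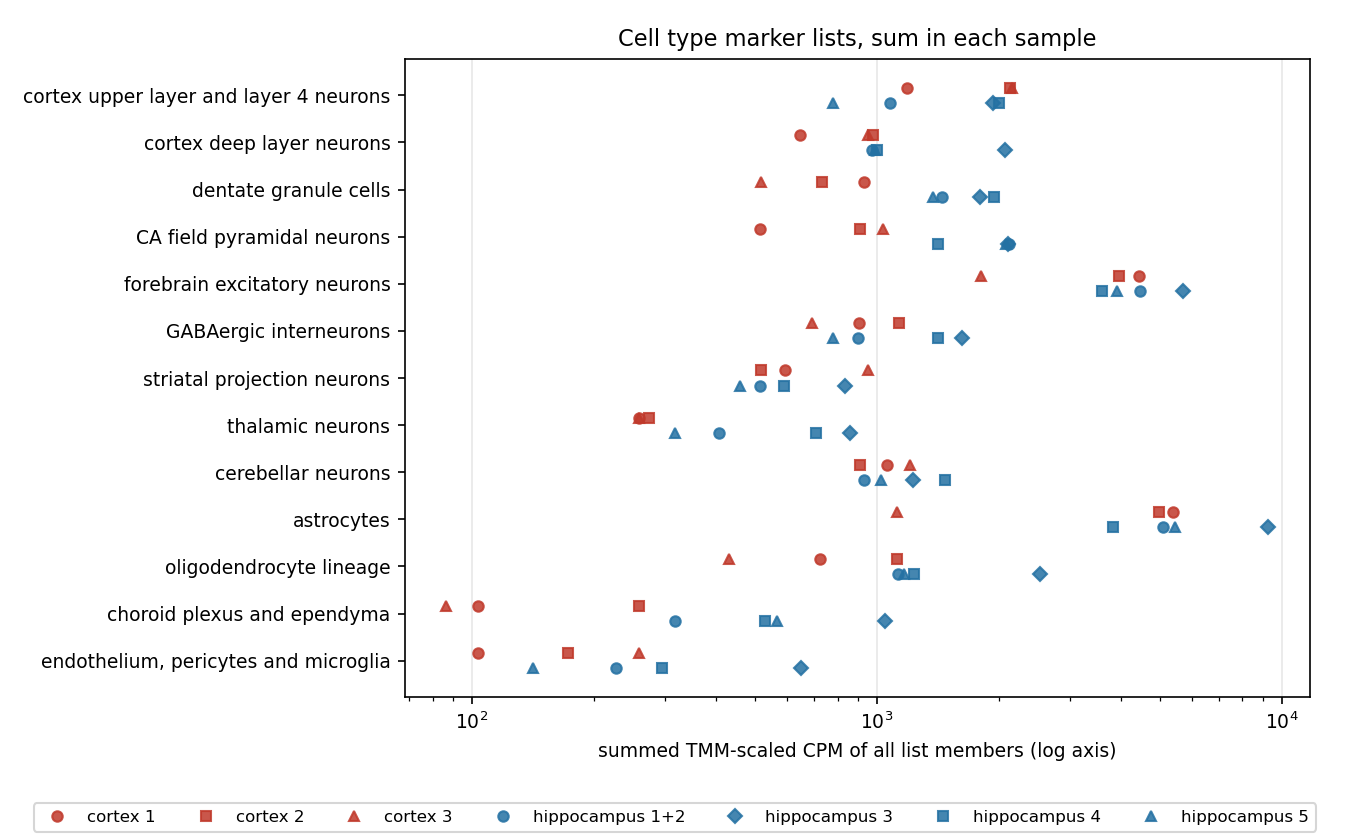
Summed scaled CPM of all members of each marker list in each sample, on a logarithmic axis (red cortex, blue hippocampus). The dentate granule cell and CA pyramidal sums lie higher in all 4 hippocampus samples, and the layer marker sums of the regions overlap.

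Known FMRP-bound messenger RNAs were measured well, with 76 of 79 listed genes tested. Of these 52 had a log2 fold change above 0 and 24 below, with a median of 0.16 against -0.04 over all rows. Over the settings tried the list's median ran from -0.10 to 0.44. At an unadjusted p under 0.05, passed by 3.95% of all rows, there were 4 with cortex higher (Kcnh1, Atp2b2, Gabbr2 and Arhgap32) and 2 lower (Camk2a and Dlgap1). Their sum was 95647, 86909 and 46004 scaled CPM in cortex and 83879, 48559, 59148 and 84378 in hippocampus. Low sums thus marked cortex 3, hippocampus 3 and hippocampus 4, in both regions. Cortex 1, cortex 2, hippocampus 1+2 and hippocampus 5 had the high sums, so each region held both kinds of sample.

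Postsynaptic scaffold and spine genes were nearly all measurable, 30 of 31, with 13 above 0, 17 below and a median of -0.13 (0.10 on library totals). Dlgap1, a scaffold of the postsynaptic density, had 181, 317 and 0 scaled CPM in cortex and 423, 318, 589 and 495 in hippocampus. The regions nearly met, at cortex 2 and hippocampus 3 (-1.20 on the log2 scale, SE 0.51, adjusted p = 0.999, edgeR). Dlg2, a scaffold of the same family as the postsynaptic density protein Dlg4, had a value of 0.71 (SE 0.43). Ionotropic glutamate receptor genes had 7 of 13 above 0 and a median of 0.04. Grik2, a kainate receptor subunit, had 51.6, 43.2 and 86.3 in cortex and 151, 212, 118 and 141 in hippocampus, with no overlap (-1.61, SE 0.78, adjusted p = 0.999, edgeR). Of the metabotropic receptor and Homer genes, 4 of 5 were below 0 (median -0.71), with the scaffold Homer2 at -1.87 (SE 0.95) and Grm3 at 1.30 (SE 0.82).

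GABA receptor genes had 4 of 6 above 0 and a median of 0.40, which ran from -0.09 to 0.71 over the settings tried. Gabbr2, a subunit of the metabotropic GABA-B receptor, had 593, 331 and 173 scaled CPM in cortex and 272, 370.5, 177 and 70.7 in hippocampus, and cortex 3, with 2 counts, lay below 3 of the hippocampus samples (log2 fold change 1.06, SE 0.53). Calcium and sodium channel genes had 7 of 10 above 0 and a median of 0.36, led by the T-type channel Cacna1i at 0.79 (SE 0.54). Potassium channel genes had 10 of 18 above 0, with a median of 0.27 that was -0.09 without the title-code block. Of these channel and GABA receptor genes 0 passed the test, and 3 had an unadjusted p under 0.05 (3.95% over all rows): Gabbr2, Kcnh1 and Kcnq3.

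Axon guidance genes had 16 of 21 below 0 and a median of -0.34, which was -0.08 on library totals. At an unadjusted p under 0.05 (3.95% of all rows) their 4 members were Plxnd1 and Robo2, higher in cortex, and Epha6 and Sema5a, lower. Epha6, an ephrin receptor, had 103, 71.9 and 518 scaled CPM in cortex and 438, 582, 236 and 424 in hippocampus. Cortex 3 alone, with 6 counts, lay at the hippocampus level (log2 fold change -1.51, SE 0.59, adjusted p = 0.89, edgeR). Without cortex 3, hippocampus 3 and hippocampus 4 the value was -2.32 and was called (adjusted p = 0.0378). Robo2, the Slit receptor, had 464, 374 and 173 against 249, 172, 177 and 70.7. Microtubule and motor genes, all 22 of them tested, had 15 above 0 and a median of 0.09, with the kinesin Kif21b at 0.90 (SE 0.45). Activity-induced genes were too sparse, with 0 of 14 tested: Arc had 1, 0 and 0 counts in cortex and 2, 5, 0 and 1 in hippocampus.

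Pde2a, for which the series is named, encodes a phosphodiesterase that degrades cAMP and is switched on by cGMP. Its level was 1109 (43 counts), 820.2 (57) and 1036 (12) scaled CPM in cortex, an even level with a mean of 988 ± 150.3 (SD, n = 3). In hippocampus it was 1042 (138 counts), 106 (8), 589 (10) and 318 (9), with a mean of 514 ± 404 (SD, n = 4). Hippocampus 1+2 stood at the cortex level and hippocampus 3 far below it. On the log2 scale the difference was 0.80 (SE 0.43, adjusted p = 0.999, edgeR), and it stayed between 0.47 and 1.48 over the settings tried without a call. Only 5 of the 22 phosphodiesterase genes were tested. The other 4 lay below 0: Pde1a (-0.89, SE 0.91), Pde3a (-0.67, SE 0.84), Pde10a (-0.32, SE 0.66) and Pde4d (-0.18, SE 0.58). Of 13 tested genes that make or answer to cyclic nucleotides, 6 were above 0 (median -0.07). Adenylyl cyclase 9 (Adcy9) had 103, 86.3 and 0 in cortex against 151, 159, 353 and 212 in hippocampus. Nos1, the neuronal nitric oxide synthase, had 77.4, 71.9 and 86.3 against 128, 198, 236 and 177. Both genes showed no overlap (log2 fold changes -1.35, SE 0.72, and -1.18, SE 0.71).

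The rows with the most fragments were largely shared. Of the 10 highest rows of each region 9 were shared, of the 50 highest 41 and of the 100 highest 76. Apc, a Wnt pathway scaffold that binds microtubule ends, led in both regions with 8798, 6820.3 and 2935 scaled CPM in cortex and 7040.3, 2223, 6304 and 8908 in hippocampus. Map1b, a microtubule-associated protein, was the second in both regions, and Kif1a, the motor of synaptic vesicle precursors, was the fourth. Ank2, a giant ankyrin of axons, was the third in cortex and the fifth in hippocampus. Huwe1, a ubiquitin ligase, was the fifth in cortex, and Slc1a2, the main glial glutamate transporter, was the third in hippocampus. Slc1a2 had 2838, 3324 and 432 against 2583, 4671, 2298 and 3641; without cortex 3 its log2 fold change went from -0.40 to 0.13. For Apc, Map1b, Kif1a, Ank2 and Huwe1 the log2 fold changes were -0.11, 0.07, 0.05, 0.22 and 0.36, and the sign of the first 4 turned in at least 1 setting.

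Divided by the length of the longest annotated transcript, other rows led. Per kilobase, Rnu5g was the first in hippocampus with 6165 scaled CPM and the seventh in cortex with 2372. The first in cortex was Mir5108, an annotated microRNA hairpin, at 3441 per kilobase, but its level before division was 293 ± 422 scaled CPM (SD, n = 3). The Y RNAs Rny3 (2583 in cortex, 4182 in hippocampus) and Rny1 (2410 and 2941) and the spliceosomal Rnu1a1 (2173 and 3615) also stood high, with the transcription regulator 7SK (Rn7sk, 1567 and 2676). On this scale Apc had 483 in cortex and 478 in hippocampus, and Camk2a 127 and 305. Camk2a was row 16 by fragments in hippocampus and row 105 in cortex. Short RNAs have many genomic copies, and the sources used here do not say how fragments with several matches were counted.

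Rows seen in 1 region only had few counts. At 0 counts in every cortex sample and with a count in every hippocampus sample there were 220 rows, of which 1, Draxin, was tested. The reverse held for 5 rows, none of them tested. Cortex had 98403 counts in all and hippocampus 291103. Led by total count, the rows absent from cortex were Ptpn14, a phosphatase (26 counts in hippocampus), Mylk, myosin light chain kinase (24), Fbn1, fibrillin (23), Dnah12, an axonemal dynein (23), and Gprin2 (21). Their pooled hippocampus levels were 4.10, 3.79, 3.63, 3.63 and 3.31 times the cortex floor of 3 pooled counts, on the TMM scale. The rows were picked by these same counts, which favours large values, and error in the hippocampus counts is left out. Degs2, Pop4, Atpaf2 and Ifitm3 were absent from hippocampus, with 3 or 4 counts in cortex.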

How the data were processed

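The authors deposited whole-number fragment counts per gene symbol (30986 rows); CPM values here were computed from these counts. Per the submitters' processing notes the build is mm10, with Bowtie 0.12.7 and Picard among the tools. The sources used here do not give the counting program, the annotation, the use of strand or any removal of duplicates, so overlapping, antisense and near-identical genes cannot be told apart. Number of sample columns with no sample in the labels: 0.

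The counts were tested with the quasi-likelihood test of edgeR 4.0.16 (R 4.3.3), with TMM factors, filterByExpr by region, the title code as a block and Benjamini-Hochberg adjusted p under 0.05. A row could pass the filter through 1 region alone, which favours rows that differ between the regions. Prox1, Dsp, Ttr, Ddr1, Iars2 and Draxin passed only through samples outside cortex. The fit held 9 samples, 2 of them cerebellum, with 4 residual degrees of freedom. Hippocampus 3 shares its code with cerebellum 2 and no cortex sample, so it enters the contrast only through the cerebellum samples. SE is the absolute log2 fold change over the square root of F and is approximate. Ratios within a code used a prior of 1 count on average, set in proportion to each scaled library total and so smaller in shallow samples. Alternatives used DESeq2 1.42.0 and limma 3.58.1 (voom), other filters and scales, and left out samples; the procedure was tested on simulated data. Intervals and floors cover counting error only.

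Named are called rows or, failing these, the 12 of smallest p per direction, Pde2a, the 5 rows with most fragments per region, up to 3 leading tested members of each of 25 lists, and up to 5 rows seen in 1 region only. Predicted gene names were passed over, 1 among the cortex-lower rows and 0 among the cortex-higher rows by p. Values of a few list members that the rule names are not reported here. The members and lists were chosen with earlier results of these data known. Gene coordinates and transcript lengths come from GENCODE M21 (GRCm38), matched by symbol.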

Additional observations from a re-analysis of the deposited data

Results flagged for a closer look

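Of 88 levels and list sums examined over the 4 hippocampus samples, 6 had 1 sample far from the others (the gap to the nearest sample, relative to the range, passed the 95% critical value of Dixon's test); chance alone gives about 1 in 20. Groups of 3, such as cortex, were not examined. Mef2c and Kif26b each had their highest value in hippocampus 4, at 353 scaled CPM, against 79.4 to 106 and 151 to 177 in the other hippocampus samples. Cux2 was lowest in hippocampus 5, at 35.3 scaled CPM, which is 1 count. The summed level of deep layer genes was 2077 scaled CPM in hippocampus 3 against 974 to 1002 elsewhere in hippocampus, and that of oligodendrocyte genes was 2527 there against 1126 to 1237. On library totals hippocampus 3 had 1338 CPM for deep layer genes against 775 to 1300. For oligodendrocyte genes it had 1628 against 957 to 1533. The sum of CA field pyramidal genes was lowest in hippocampus 4, at 1414 scaled CPM against 2086 to 2115. On library totals it was 1094 CPM there against 1355 to 2740.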

How the results depend on the processing

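The count of called rows was 0 in most settings. It was 3 with only cortex and hippocampus samples under the title-code block (Zbtb20, Camk2a, Dock4), 1 with 10 separate libraries (Zbtb20), 1 with DESeq2 (Zbtb20), 1 with the stricter filter (Ttr) and 3 without hippocampus 3, cortex 3 and hippocampus 4 (Zbtb20, Epha6, Kcnh1; chosen after seeing the data). Leaving out 1 sample gave 0 to 1 calls, the 1 being Zbtb20 without hippocampus 3. Leaving out 1 sample gave 35 to 106 rows without overlap and cortex higher (19 with all samples) and 91 to 185 with cortex lower (64 with all samples). Without hippocampus 1+2 these were 53 and 111, and library totals gave 42 and 25. Fewer samples then have to be parted when 1 is left out. The tested rows change too, with 1148 without hippocampus 3 and 1720 with all samples, so these counts are not shares of 1 set of rows.

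The title code as a block: samples of the same code deviated from their region means together with a median r of 0.21 (5 pairs, -0.06 to 0.46), and those of different codes with -0.10 (7 pairs). Not every pair passed 0.1, so this check does not show that the codes pair the samples; the fit keeps the code as a term all the same. Without the block 0 rows were called with cerebellum in the fit and 0 without it. Same-sign agreement of the codes was 52.1%, and 52.0% both on library totals and with a prior of 3 counts.

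Among the named genes the sign turned for 5. Apc, at -0.11, was 0.0329 without the replicate block, 0.11 on library totals, 0.14 without the filter, 0.35 without cortex 3 and 0.26 without hippocampus 5. Map1b, at 0.07, was -0.0893 with only cortex and hippocampus samples under the block (0.0906 without it), -0.46 with only code B, -0.17 with limma voom, and -0.32 to 0.57 with 1 sample left out. Kif1a, at 0.05, was -0.12 with only cortex and hippocampus samples under the block (0.14 without it), -0.0266 with 10 libraries, -0.0392 in code B and -0.25 without the 3 samples of low known share. With 1 sample left out it ranged from -0.18 to 0.54. With 1 sample left out Ank2 ranged from -0.10 (without cortex 2) to 0.61, and Slc1a2 from -1.25 to 0.13 (without cortex 3). The cause was not tested. Of the 24 rows of smallest p, 11 moved by over 1.5 times with 1 sample left out and 0 changed sign. Over the settings that left enough members, the median changed sign for 14 of 19 lists; that of the dentate list ran from -1.28 to -0.48, and that of forebrain excitatory genes ran from -0.55 to 0.71.

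Depth limits the comparison: a count of 0 allows up to 259 scaled CPM in cortex 3 and 22.7 in hippocampus 1+2.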

Other observations

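The calcium pumps of the plasma membrane, which move calcium out of neurons, were looked at as a family after their values had been seen. Atp2b1 had 697, 662 and 173 scaled CPM in cortex and 408, 423, 58.9 and 353 in hippocampus, a log2 fold change of 0.93 (SE 0.47). Together with Atp2b2 (1.06) and Atp2b4 (1.30), 3 of the 4 genes had higher fitted values in cortex. Each of the 3 stayed above 0 in the fit and in its 20 alternatives, library totals included, with ranges of 0.41 to 1.41, 0.51 to 1.53 and 1.003 to 1.81. The fourth gene, Atp2b3, had -0.48 (SE 0.75), with 103, 43.2 and 173 in cortex and 128, 172, 177 and 35.3 in hippocampus. None of the 4 passed the test (adjusted p of 0.847 to 0.999, edgeR). The sodium and calcium exchanger Slc8a1, which serves the same task, did not overlap between the regions, with 826, 691 and 777 in cortex against 476, 582, 530.2 and 601, at a small log2 fold change of 0.45 (SE 0.45). On library totals it did overlap, at cortex 3 (756 CPM) and hippocampus 5 (789.6).

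Further transcription factors, also picked after their values were seen, had higher values in hippocampus. Nfia, a nuclear factor I gene of glia and hippocampal development, had 181, 57.6 and 86.3 scaled CPM in cortex and 279, 304, 295 and 283 in hippocampus (-1.41 on the log2 scale, SE 0.62, adjusted p = 0.999, edgeR). On library totals the hippocampus values of Nfia were less even, at 284, 196, 228 and 372 CPM. Tcf4, a helix-loop-helix factor, had 387, 273 and 86.3 against 468, 437, 589 and 778 (-0.99, SE 0.48). Neither overlapped between the regions on this scale, but both did on library totals without TMM factors, where the means of Nfia were 128 and 269.9 CPM and those of Tcf4 304 and 559. Of the other nuclear factor I genes, Nfic had -1.22, Nfib -0.72 and Nfix -0.49, and the last 2 overlapped between the regions; on library totals Nfic overlapped too.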
